A study of Mus musculus with 11 samples.

Results

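The comparison described here set livers that lacked TNF receptor 1 against livers that lacked TRAIL, both on a background without Nemo in hepatocytes. Samples were taken by the genotype in their titles: 3 Nemo/TNFR1 dKO arrays and 2 Nemo/TRAIL dKO arrays, 5 of the 11 arrays in the series. All values below are log2 array signals, and every difference is Nemo/TNFR1 dKO minus Nemo/TRAIL dKO unless another is named.

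TNFR1 (Tnfrsf1a) is the main receptor for TNF. Once bound it assembles a complex that either activates NF-kB through the IKK kinase or, where that arm fails, a death complex around caspase-8. Nemo (Ikbkg, also IKKγ) is the regulatory subunit of IKK, so hepatocytes without it are prone to die and the liver becomes chronically inflamed. TRAIL (Tnfsf10) is a related ligand that triggers caspase-8 through its own death receptor. The series title names the control of hepatocyte death and chronic liver disease by TNFR1 as the question. Setting the double knockouts against each other asks where removing one death receptor left another liver transcriptome than removing the other death ligand.

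The RNA came from whole livers of male mice aged 8 to 9 weeks on chow, labelled C57/BL6. Nemo/TNFR1 dKO mice carried the hepatocyte deletion of floxed Nemo and a constitutive TNFR1-/- allele. Nemo/TRAIL dKO mice carried the same Nemo deletion and a constitutive TRAIL-/- allele. The remaining 6 arrays were 3 wild-type (WT) and 3 Nemo KO livers, the latter with the Nemo deletion and neither added allele. The labels do not name the promoter that drove Cre. The TNFR1 and TRAIL alleles are constitutive, so each applied to every cell of its mice, immune cells included. The labels do not say that replicates were separate animals, so each p-value reflects how these samples vary among themselves, which may be technical. The array names carry one code in all Nemo/TNFR1 dKO samples and another in both Nemo/TRAIL dKO samples, so whatever the code marks and the genotype cannot be told apart. Because the tissue is bulk, fewer cells of a type and less RNA per cell cannot be told apart either.

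The arrays of both genotypes were as much alike across as within groups. The median absolute difference between a pair of arrays over all probe sets was 0.116 to 0.142 within Nemo/TNFR1 dKO, 0.118 between the Nemo/TRAIL dKO arrays, and 0.113 to 0.145 across them. Liver identity was plain in all 5: albumin (Alb) read 13.93 and 13.87 in Nemo/TRAIL dKO and 13.93, 13.85 and 13.85 in Nemo/TNFR1 dKO. The median standard error of a difference was 0.114, and the median 95% interval reached 0.255 to either side.

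Few transcripts separated the genotypes. Of 35556 probe sets 17 passed limma's test at a Benjamini-Hochberg adjusted p below 0.05 (0.0478%), named called from here on, with 2 higher (0.00562%) and 15 lower (0.0422%) in Nemo/TNFR1 dKO. Without adjustment 1788 probe sets had p below 0.05, and 1778 is the number this threshold gives where nothing differs. Each of the 17 differed by at least 1.5-fold. They comprised 9 probe sets of a multi-copy gene family, 6 probe sets of named genes (0.0301% of 19938 genes) and 2 probe sets without a gene name. The median difference over all genes was 0.02.

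**Figure D1:**
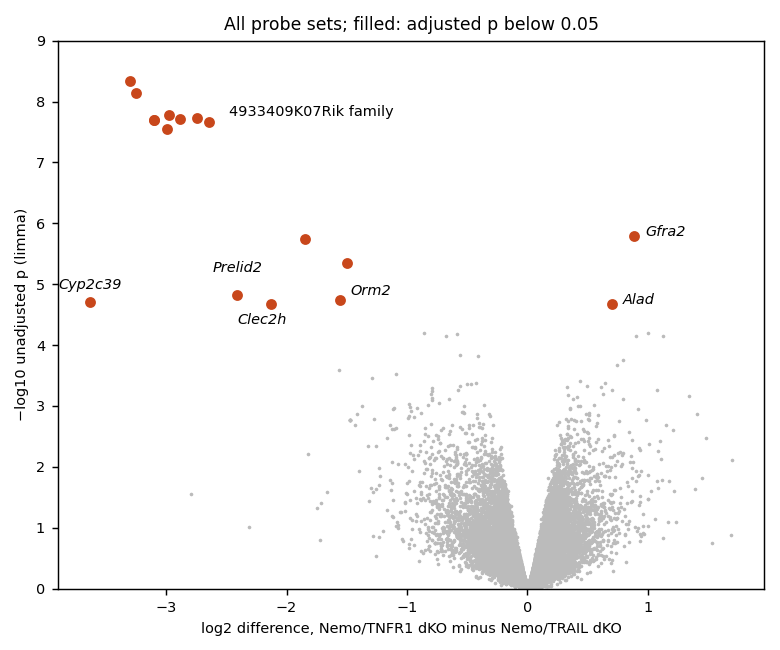
Each point is 1 of the 35556 probe sets, with the log2 difference (Nemo/TNFR1 dKO minus Nemo/TRAIL dKO) on the horizontal axis and −log10 of limma's unadjusted p on the vertical axis. Filled points are the 17 probe sets with an adjusted p below 0.05, of which 15 lie to the left and 2, Gfra2 and Alad, to the right.

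The targeted genes were read first. Ikbkg read 8.28 and 8.22 in Nemo/TRAIL dKO and 8.20, 8.31 and 8.12 in Nemo/TNFR1 dKO, a difference of -0.04 ± 0.09 (SE). Its level was alike in both groups, which share the Nemo deletion, and lay below WT livers, of which the lowest read 8.600. Tnfrsf1a read 10.43 and 10.39 in Nemo/TRAIL dKO against 10.04, 9.95 and 10.19 in Nemo/TNFR1 dKO. The groups did not overlap, but the difference of -0.35 ± 0.10 did not pass limma's test (adjusted p = 0.793). WT livers read 10.09, 9.93 and 9.95, so the Nemo/TNFR1 dKO arrays lay at WT level or above it, and this probe set does not show a loss of the receptor's transcript against WT. Tnfsf10 read 6.23 and 6.11 in Nemo/TRAIL dKO against 6.71, 6.78 and 6.49 in Nemo/TNFR1 dKO, a difference of 0.49 ± 0.19 (adjusted p = 0.932). The ligand's signal was lower in both TRAIL-deficient livers without overlap. WT livers read 6.51 to 6.996 and Nemo KO livers 6.26 to 6.86, so the Nemo/TNFR1 dKO arrays lay within both ranges or at the edge. The labels do not give the exons removed, so a probe set outside the deleted part would not check the label.

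Most of the called probe sets belonged to a multi-copy family annotated by several predicted genes at once, with 4933409K07Rik among the names on each. It had 9 probe sets, and the 8 with distinct values averaged 9.38 and 9.05 in Nemo/TRAIL dKO and 6.18, 6.16 and 6.35 in Nemo/TNFR1 dKO. The Nemo KO arrays averaged 9.06 to 9.34 and the WT arrays 8.41 to 8.99, so the Nemo/TNFR1 dKO arrays stood below every other array of the series. The family fell, with a median difference of -2.996 (7.98-fold), single probe sets between -3.30 and -2.64 and adjusted p at most 0.000112. Near-identical copies share probes, so which copy the signal came from is uncertain. What these genes do in liver is not annotated.

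Cyp2c39, a cytochrome P450 of the Cyp2c subfamily that oxidises fatty acids and retinoids, had the largest difference of any named gene. It read 10.59 and 11.92 in Nemo/TRAIL dKO against 8.36, 7.47 and 7.04 in Nemo/TNFR1 dKO. All other arrays, 3 WT and 3 Nemo KO, read 6.25 to 7.25, so that the Nemo/TRAIL dKO livers were the ones that stood apart. The difference was -3.63 ± 0.46 (SE), 12.4-fold lower in Nemo/TNFR1 dKO (limma adjusted p = 0.0448). It was -2.97 without Nemo/TRAIL dKO replicate 2 and -4.30 without replicate 1.

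Prelid2, which encodes a protein with a PRELI domain of the kind that carries phospholipids inside mitochondria, read 8.77 and 8.20 in Nemo/TRAIL dKO against 5.73, 6.397 and 6.09 in Nemo/TNFR1 dKO. The groups were clear of each other, and Nemo KO livers, at 7.72 to 7.83, lay between them. Prelid2 fell by 2.41 ± 0.30 on the log2 scale, 5.32-fold (adjusted p = 0.0417).

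Clec2h, a C-type lectin-like membrane protein whose relatives are ligands for receptors of natural killer (NK) cells, read 7.51 and 7.51 in Nemo/TRAIL dKO against 5.79, 5.36 and 5.0 in Nemo/TNFR1 dKO. The Nemo/TRAIL dKO arrays sat within the 6.98 to 7.65 of Nemo KO, while WT arrays read higher, 8.06 to 8.80. The difference was -2.13 ± 0.28, 4.38-fold lower in Nemo/TNFR1 dKO (adjusted p = 0.0448).

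Orm2 encodes orosomucoid 2, an acute phase glycoprotein that hepatocytes secrete in inflammation. It read 10.72 and 10.59 in Nemo/TRAIL dKO against 9.44, 8.95 and 8.90 in Nemo/TNFR1 dKO. Nemo/TRAIL dKO arrays lay in the range of Nemo KO (10.56 to 11.17), and 2 of the 3 Nemo/TNFR1 dKO arrays in that of WT (8.85 to 9.00). Orm2 fell by 1.56 ± 0.20, 2.95-fold (adjusted p = 0.0448).

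The genes that rose were Gfra2 and Alad. Gfra2, the co-receptor for the neurotrophic factor neurturin, read 7.08 and 6.91 in Nemo/TRAIL dKO against 7.97, 7.79 and 7.88 in Nemo/TNFR1 dKO. Nemo KO livers were higher still, at 8.22 to 8.28, and WT livers read 7.21 to 7.36. The difference was 0.88 ± 0.08, 1.85-fold (adjusted p = 0.0057). Alad, the haem synthesis enzyme that joins molecules of aminolevulinic acid, read 11.72 and 11.85 in Nemo/TRAIL dKO against 12.39, 12.52 and 12.55 in Nemo/TNFR1 dKO. Here the Nemo/TNFR1 dKO arrays stood above all WT and Nemo KO arrays, which read 11.73 to 11.93. The difference was 0.70 ± 0.09, 1.63-fold (adjusted p = 0.0448). Alas1, the rate-limiting enzyme before it, differed by -0.31 ± 0.27.

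The calls on single genes rested on the spread shared by all 4 genotypes, and those other than Gfra2 were close to the threshold. With the 5 arrays of both double knockouts fitted alone, 9 probe sets were called, all of the multi-copy family, and the adjusted p was 0.375 for Gfra2, 0.709 for Cyp2c39, 0.373 for Prelid2, 0.375 for Clec2h, 0.489 for Orm2 and 0.589 for Alad. When each of the 11 arrays was left out in turn, Gfra2 was called in 10 fits, Cyp2c39 and Clec2h in 3 each, Prelid2 and Orm2 in 2 each, and Alad in 0.

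**Figure D2:**
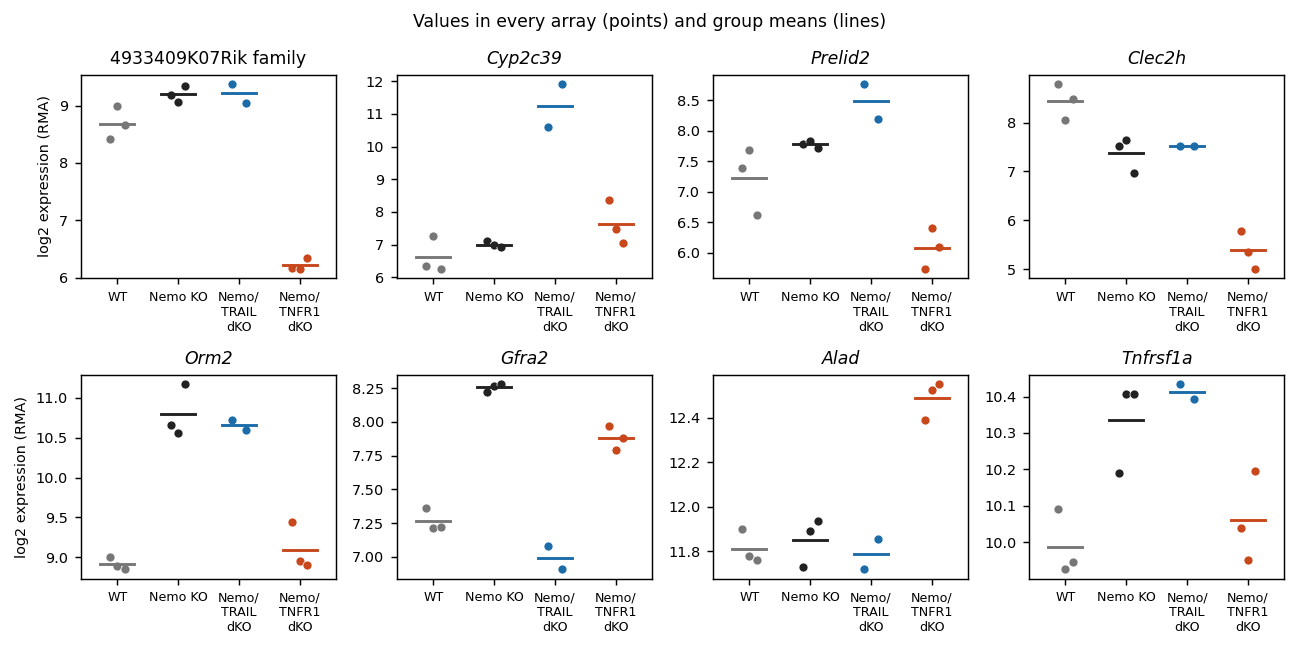
Log2 signal of the multi-copy family (mean of its 8 distinct probe sets) of the 6 called genes and of Tnfrsf1a, which was not called, in each of the 11 arrays (points) with group means (lines), by genotype. The Nemo/TNFR1 dKO arrays lie lowest of all groups for the family, Prelid2 and Clec2h and highest for Alad, while the Nemo/TRAIL dKO arrays lie highest for Cyp2c39 and lowest for Gfra2.

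Promoter sequences are shown for 4 of the 6 called genes, without Gfra2 and Prelid2, and for Orm3, the neighbour of Orm2 whose signal also lay lower, so that the regulatory context of the differences can be read. They are RefSeq promoter windows of 300 bases on GRCm38.p6, which span the transcript start, and 5 genes matched. Capitals mark matches to the AP-1 motif TGANTCA or the C/EBP motif TTGCNNAA, searched on both strands together with the STAT motif TTCNNNGAA and the NF-kB consensus, and no match overlapped another. Orm2 lies at chr4:63362199-63362498 (plus strand), Orm3 at chr4:63355908-63356207 (plus), Clec2h at chr6:128662135-128662434 (plus), Cyp2c39 at chr19:39347096-39347395 (plus) and Alad at chr4:62520014-62520313 (minus).
Orm2: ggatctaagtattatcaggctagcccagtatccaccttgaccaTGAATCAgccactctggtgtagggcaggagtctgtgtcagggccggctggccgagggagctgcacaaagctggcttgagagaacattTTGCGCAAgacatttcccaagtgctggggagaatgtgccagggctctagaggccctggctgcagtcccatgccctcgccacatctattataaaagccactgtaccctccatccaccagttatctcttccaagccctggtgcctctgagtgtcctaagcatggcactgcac
Orm3: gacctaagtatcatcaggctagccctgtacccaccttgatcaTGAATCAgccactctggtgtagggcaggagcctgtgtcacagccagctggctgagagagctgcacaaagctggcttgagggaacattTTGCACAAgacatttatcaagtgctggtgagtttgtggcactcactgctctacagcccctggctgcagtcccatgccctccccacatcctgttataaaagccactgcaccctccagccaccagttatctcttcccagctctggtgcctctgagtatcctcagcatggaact
Clec2h: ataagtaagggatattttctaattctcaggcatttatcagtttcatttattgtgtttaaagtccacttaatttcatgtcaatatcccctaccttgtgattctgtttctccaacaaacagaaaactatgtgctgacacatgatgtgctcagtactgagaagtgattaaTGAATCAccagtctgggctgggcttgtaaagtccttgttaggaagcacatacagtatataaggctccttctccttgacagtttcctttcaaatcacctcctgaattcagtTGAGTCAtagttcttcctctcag
Cyp2c39: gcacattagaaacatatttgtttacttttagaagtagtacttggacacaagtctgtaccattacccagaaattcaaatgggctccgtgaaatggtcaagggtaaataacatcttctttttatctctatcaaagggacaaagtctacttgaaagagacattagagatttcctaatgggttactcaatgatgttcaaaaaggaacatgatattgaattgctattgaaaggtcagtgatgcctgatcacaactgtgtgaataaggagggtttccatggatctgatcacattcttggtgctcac
Alad: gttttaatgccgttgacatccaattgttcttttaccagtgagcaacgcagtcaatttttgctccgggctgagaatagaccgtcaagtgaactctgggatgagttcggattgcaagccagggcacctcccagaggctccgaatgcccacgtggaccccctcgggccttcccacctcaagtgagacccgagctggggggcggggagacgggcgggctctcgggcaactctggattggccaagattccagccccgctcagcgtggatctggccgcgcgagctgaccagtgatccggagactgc
The Orm2 and Orm3 windows each held 1 AP-1 match and 1 C/EBP match, and were 89.2% identical over their aligned bases. Clec2h held 2 AP-1 matches, and Cyp2c39 and Alad held none of the 4 motifs. Of 32544 promoter windows of the same length, 7.8% held AP-1, 10.8% C/EBP, 8.3% STAT and 8.5% NF-kB matches. A match describes letters in the window and not a bound site.

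No gene of the death receptor pathways themselves passed the test. None of the 35 measured TNF ligands and receptors was called, with a median difference of 0.03, and 4 were higher and 2 lower without overlap, where 10.4% and 6.52% of all genes were. Tnf itself differed by 0.14 ± 0.08, and Tnfrsf1b, which encodes the other TNF receptor, by -0.04 ± 0.17. Tnfrsf11b (osteoprotegerin, a decoy receptor that binds TRAIL and RANKL) read 7.39 and 7.68 in Nemo/TRAIL dKO against 7.83, 7.98 and 7.71, a difference of 0.30 ± 0.11. Tnfrsf12a, the receptor for TWEAK, differed by -0.25 ± 0.17. Tnfrsf10b, the mouse TRAIL death receptor, differed by 0.24 ± 0.20 with overlapping groups, Fas by -0.08 ± 0.10 and its ligand Fasl by 0.05 ± 0.06. The TRAIL and Fas list had 11 measured members, 0 called, and a median of 0.05. Of these 4 (36.4%), Tnfsf10 among them, were higher and 1 (9.09%) lower without overlap, against 10.4% and 6.52% of all genes.

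Downstream of the receptors none passed either. In the TNFR1 signalling complex 0 of 23 members were called (median -0.04), and 5 (21.7%) were lower without overlap against 6.52% of all genes. In the list of caspase-8, necroptosis and inflammatory caspases 0 of 18 were called (median -0.04). Casp8, the initiator of death receptor apoptosis, read 10.56 and 10.52 against 10.24, 10.49 and 10.40, a difference of -0.16 ± 0.09. Mlkl, the effector of necroptosis, differed by -0.28 ± 0.17 and Ripk3, the kinase that activates it, by -0.06 ± 0.13. The BCL2 family had a median of 0.01 over 16 members, and the p53 target genes -0.07 over 23.

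The transcriptional outputs of TNF signalling were likewise near 0 on balance. The 16 genes of the IKK complex and NF-kB subunits had a median of -0.04 and the 33 NF-kB target genes one of -0.02, with 0 called in either list. Nfkbia, the inhibitor IκBα, read 8.84 and 8.97 in Nemo/TRAIL dKO against 9.22, 9.10 and 9.20, a difference of 0.27 ± 0.17. Tnfaip3 (A20, a feedback inhibitor of TNFR1 signalling) differed by -0.05 ± 0.13. The 23 JNK and AP-1 immediate early genes had a median of 0.14, which was -0.06 without Nemo/TNFR1 dKO replicate 3. That array read 7.28 for Fos against 5.82 to 5.92 in the other 4, and 10.79 for Jun against 9.27 to 9.89.

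Acute phase genes, which the liver makes under IL-6 and IL-1, lay mostly lower in Nemo/TNFR1 dKO. This list and those below were chosen with earlier results of these data known, so their counts and shares carry no test. Orm2 was called and the 29 other measured members were not, but 29 of the 30 differences were below 0 and 20 of the 30 (66.7%) were lower without overlap, against 6.52% of all genes. The list's median was -0.27 against 0.02 for all genes, and -0.17 without Nemo/TRAIL dKO replicate 1. Saa2, a serum amyloid A, read 9.46 and 8.92 in Nemo/TRAIL dKO against 7.72, 8.51 and 8.01, a difference of -1.11 ± 0.27 (adjusted p = 0.639). Lcn2, an iron-siderophore-binding defence protein, read 10.43 and 9.98 against 8.62, 9.05 and 9.44, a difference of -1.17 ± 0.53. Both sets of arrays were clear of each other for these genes, with Nemo/TRAIL dKO replicate 1 the highest. Mt2, a metallothionein, differed by -1.11 ± 0.45 and Orm3 by -0.86 ± 0.26. The constitutively high Hp and Crp differed by -0.05 ± 0.13 and -0.01 ± 0.15, so the size of the difference was uneven within the list. Set against Nemo KO, a control that both double knockouts share, the list's median was -0.12 in Nemo/TNFR1 dKO and 0.06 in Nemo/TRAIL dKO.

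Interferon-stimulated genes, the antiviral programme that type I and II interferons induce, behaved alike in direction. None of the 33 measured members was called, all 33 differences were below 0, as were 8555 of 19938 over all genes, and 15 (45.5%) were lower without overlap against 6.52% of all genes. The median was -0.26, and -0.17 without Nemo/TRAIL dKO replicate 1. Rsad2 (viperin) read 8.42 and 8.32 in Nemo/TRAIL dKO against 7.53, 7.91 and 7.77, a difference of -0.63 ± 0.24. Ifit3 read 8.28 and 8.57 against 7.76, 8.02 and 7.71, a difference of -0.59 ± 0.21. Both genes kept the groups apart, as did Mx1, an antiviral GTPase (-0.53 ± 0.15), and the interferon-induced chemokine Cxcl10 (-0.61 ± 0.19). The list's mean signal was 8.23 and 8.15 in Nemo/TRAIL dKO and 7.78, 7.98 and 7.96 in Nemo/TNFR1 dKO. Against Nemo KO its median was -0.07 in Nemo/TNFR1 dKO and 0.17 in Nemo/TRAIL dKO.

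DNA replication genes went the other way. All 29 measured members of the replication list had differences above 0, where 57.1% of all genes did, and 12 (41.4%) were higher without overlap against 10.4% of all genes, with 0 called. The median was 0.24, and 0.14 without Nemo/TNFR1 dKO replicate 2. Pole, the catalytic subunit of the leading-strand polymerase, read 6.38 and 6.401 in Nemo/TRAIL dKO against 6.67, 7.27 and 6.63, a difference of 0.46 ± 0.16. Mcm6, part of the replicative helicase, read 7.77 and 8.02 against 8.08, 8.76 and 8.12, a difference of 0.43 ± 0.23. Replicate 2 of Nemo/TNFR1 dKO was the highest for both, and for Lig1, the ligase that joins Okazaki fragments (0.37 ± 0.14). Pcna, the sliding clamp, overlapped between groups, with 0.24 ± 0.12. Against Nemo KO the list's median was 0.23 in Nemo/TNFR1 dKO and 0.00 in Nemo/TRAIL dKO. Genes of later cell cycle phases had a smaller median, 0.08 over 37 members, and the proliferation marker Mki67 differed by 0.19 ± 0.32 with overlapping groups.

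**Figure D3:**
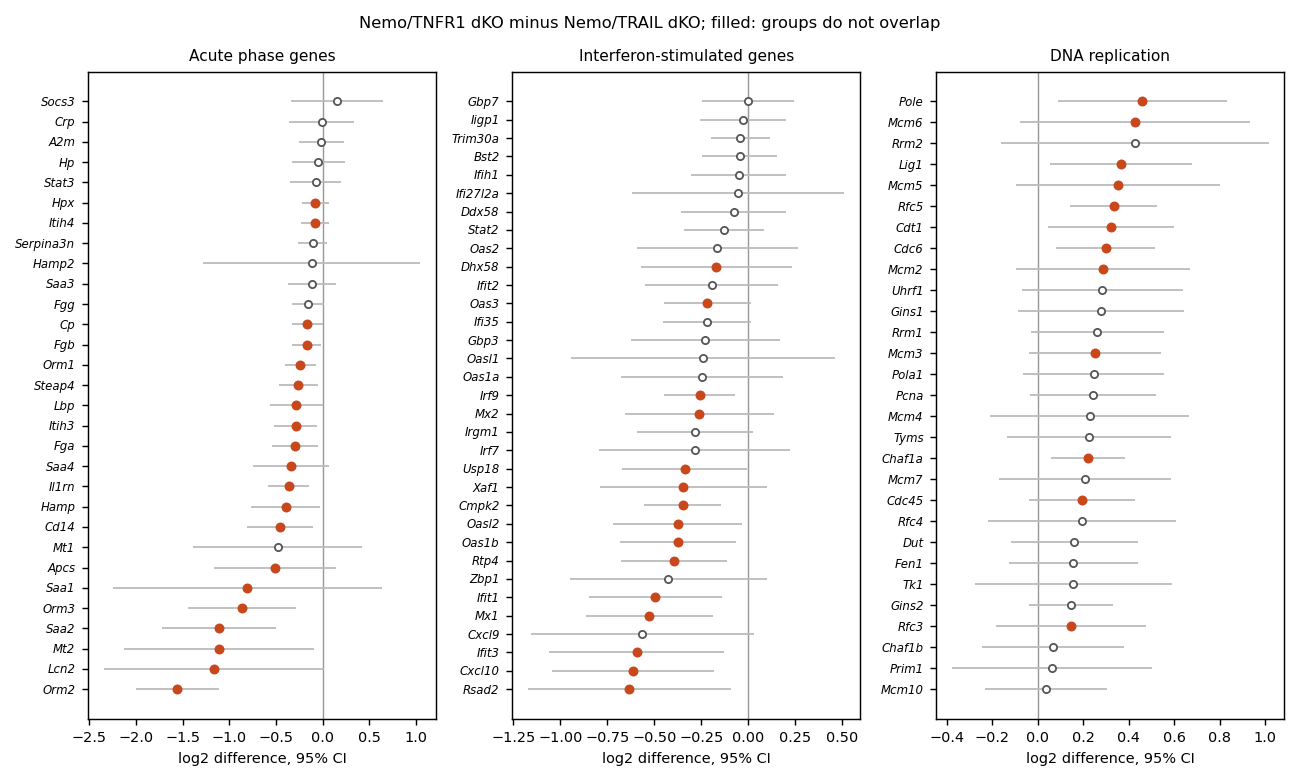
Log2 differences (points) with 95% intervals for each measured member of the acute phase, interferon-stimulated and DNA replication lists, filled where the arrays of both groups do not overlap. Members of the first 2 lists lie to the left of 0, with 29 of 30 and 33 of 33 below it, and all 29 replication genes lie to the right.

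The list of C-type lectins and NK complex genes had the largest median of the 48 lists, -0.29 over 36 measured members. Lists and members were chosen with earlier results of these data known, so its rank and its share without overlap carry no test. Clec2h was called, and 17 members (47.2%) were lower without overlap against 6.52% of all genes. Clec1b, a receptor for podoplanin, read 8.42 and 8.87 in Nemo/TRAIL dKO against 7.20, 6.99 and 7.06, a difference of -1.56 ± 0.28 (adjusted p = 0.327). Klri1, an NK cell lectin receptor, read 4.57 and 4.995 against 3.83, 3.92 and 4.03, a difference of -0.86 ± 0.13 (adjusted p = 0.109). Clec1b and Klri1 kept the groups apart, and so did Klrd1 (CD94, -0.67 ± 0.20) and Klrk1 (NKG2D, -0.50 ± 0.10), which pair with or act as NK receptors. Clec1b, Klri1 and Klrk1 were picked among genes whose groups did not overlap, so for them that property is no result. Klrk1 read low as well, 4.36 and 4.60 in Nemo/TRAIL dKO against 3.97, 3.92 and 4.04. Of other NK markers, the NK1.1 antigen Klrb1c (-0.05 ± 0.16) and Ncr1 (NKp46, -0.10 ± 0.14) differed by less than their standard errors. Differences of the 25 T and NK cell markers ran from -0.67 to 0.58. Of these 25 markers 5 (20%) were higher and 2 (8%) lower without overlap, against 10.4% and 6.52% of all genes. Their mean signal was 5.77 and 5.77 in Nemo/TRAIL dKO and 5.77, 5.72 and 5.94 in Nemo/TNFR1 dKO.

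Most genes of that list sit in one cluster on the chromosome that also carries Tnfrsf1a. Counted in genes with a probe set, Clec2h lay 35 genes from Tnfrsf1a, and 28 of the 36 list genes lay between 33 and 71 genes from it. Of those 28, 24 were below 0 and 16 lower without overlap, where 6.52% of all genes were, with a median of -0.35. The 8 list genes elsewhere had a median of -0.14, and 1 was lower without overlap. The 32 genes between Tnfrsf1a and the cluster had a median of 0.01, and 3 were lower without overlap. This division of the list was chosen after the values were seen and carries no test. Among the 15 genes on each side of Tnfrsf1a 0 of 30 were called (median 0.00), and likewise among 30 around Tnfsf10 (median -0.02). Whether flanking sequence carried with the knockout allele has a part in the lectin values was not tested.

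**Figure D4:**
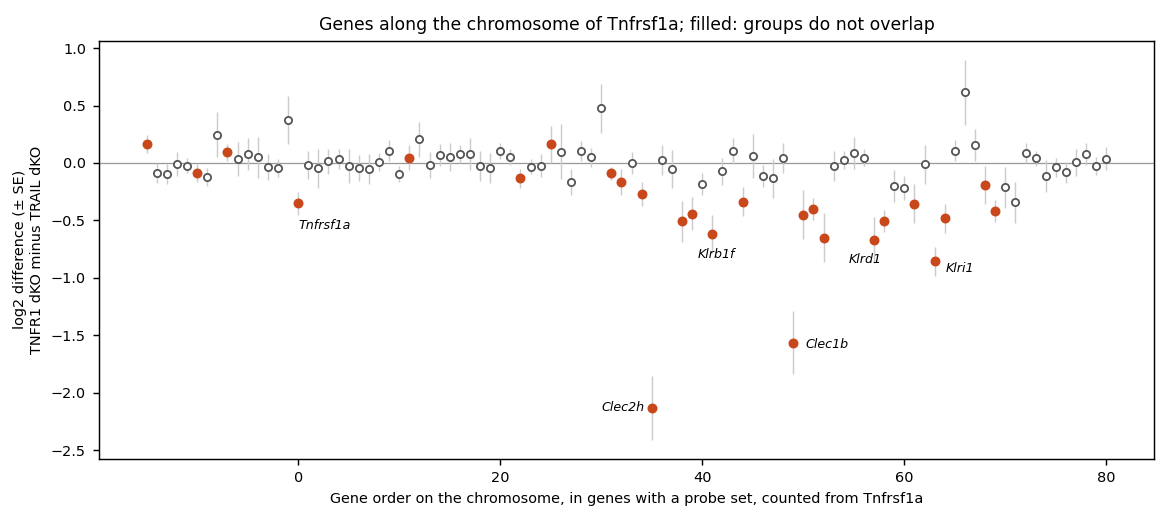
Log2 differences ± SE of genes along the chromosome of Tnfrsf1a, placed by gene order from Tnfrsf1a at 0 and filled where the groups do not overlap. Values lie near 0 close to Tnfrsf1a and scatter below 0 in the stretch from 33 to 71 genes away that holds Clec2h, Clec1b and Klri1.

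Among the 15 genes on each side of Alad, Orm2, Gfra2, Clec2h and Cyp2c39, the only calls were Alad and Orm2 themselves. They lie 11 genes apart, and Alad rose while Orm2 fell. Hdhd3, directly beside Alad, read 8.28 and 8.29 in Nemo/TRAIL dKO against 8.65, 8.69 and 8.98, a difference of 0.49 ± 0.15. Around Gfra2 9 of 30 neighbours were higher and 2 lower without overlap, where 10.4% and 6.52% of all genes were. Among the higher was Phyhip, which binds a peroxisomal hydroxylase, 13 genes away at 1.001 ± 0.15 (adjusted p = 0.109). Phyhip read 5.36 and 5.39 in Nemo/TRAIL dKO against 6.63, 6.36 and 6.13, and WT and Nemo KO arrays read 6.12 to 6.62, so again the TRAIL-deficient livers stood apart.

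Drug-metabolising P450 genes had a median of 0.06 over 36 members, with Cyp2c39 the only one called. Their differences ran from -3.63 to 1.53. Of these genes 5 (13.9%) were higher and 3 (8.33%) lower without overlap, against 10.4% and 6.52% of all genes. None of the 30 neighbours of Cyp2c39, Cyp2c genes among them, was called. Cyp2c55 read 7.30 and 6.86 in Nemo/TRAIL dKO against 7.64, 8.74 and 8.15, a difference of 1.10 ± 0.29 in the opposite direction (adjusted p = 0.73). Cyp2c54 differed by 0.64 ± 0.21, and Cyp2c29, among the highest in liver, by -0.06 ± 0.20. The subfamily is closely similar in sequence, so probes may read more than 1 member. Cyp3a11 and Cyp1a2, the main enzymes of their subfamilies, differed by -0.12 ± 0.09 and 0.15 ± 0.15. Differentiated hepatocyte genes had a median of 0.01 over 27 members, of which Alad was called.

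Sex-biased, growth hormone and lipid lists had medians near that of all genes. Bcl6, a repressor that opposes STAT5 in liver, read 7.67 and 8.49 in Nemo/TRAIL dKO against 9.598, 9.82 and 9.16, a difference of 1.45 ± 0.49 that did not pass. The male-biased liver genes had a median of -0.03 over 21 members, 6 of them (28.6%) lower without overlap against 6.52% of all genes, and the female-biased genes -0.06 over 19. Cyp7b1, an oxysterol hydroxylase that is higher in males, overlapped between groups, with -0.72 ± 0.51. Cholesterol synthesis had a median of 0.10 over 20 members, bile acid synthesis and transport 0.09 over 31, and the unfolded protein response -0.05 over 26. Of the last 8 (30.8%) were lower and 3 (11.5%) higher without overlap, against 6.52% and 10.4% of all genes.

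No marker of the non-parenchymal cells was called. Kupffer cell markers had a median of 0.08 over 16 members, with mean signals of 8.75 and 8.82 in Nemo/TRAIL dKO and 8.94, 8.84 and 8.84 in Nemo/TNFR1 dKO. Of these markers 5 (31.25%) were higher and 2 (12.5%) lower without overlap, against 10.4% and 6.52% of all genes. Monocyte and inflammatory macrophage markers had a median of -0.05 over 36. Within that list Trem2, a receptor of lipid-associated macrophages, read 7.82 and 7.73 against 8.01, 8.23 and 8.15, a difference of 0.35 ± 0.09, while the tetraspanin Cd63 differed by -0.73 ± 0.32. Neutrophil markers had a median of 0.02, sinusoidal endothelial markers 0.02, hepatic stellate cell markers 0.14 and extracellular matrix genes 0.11, with 0 called. Cholangiocyte and progenitor markers had a median of -0.15 over 15 members, all 15 below 0. Only 1 (6.67%) was lower without overlap, against 6.52% of all genes. Their mean signals overlapped between groups, at 7.26 and 6.78 in Nemo/TRAIL dKO and 6.57, 6.78 and 7.10 in Nemo/TNFR1 dKO. Pancreatic acinar markers averaged 5.19 to 5.51 in the arrays other than WT replicate 3, where they averaged 10.87. That array enters this contrast only through the shared estimate of the spread. Without it 15 probe sets were called, 13 of them among the 17.

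**Figure D5:**
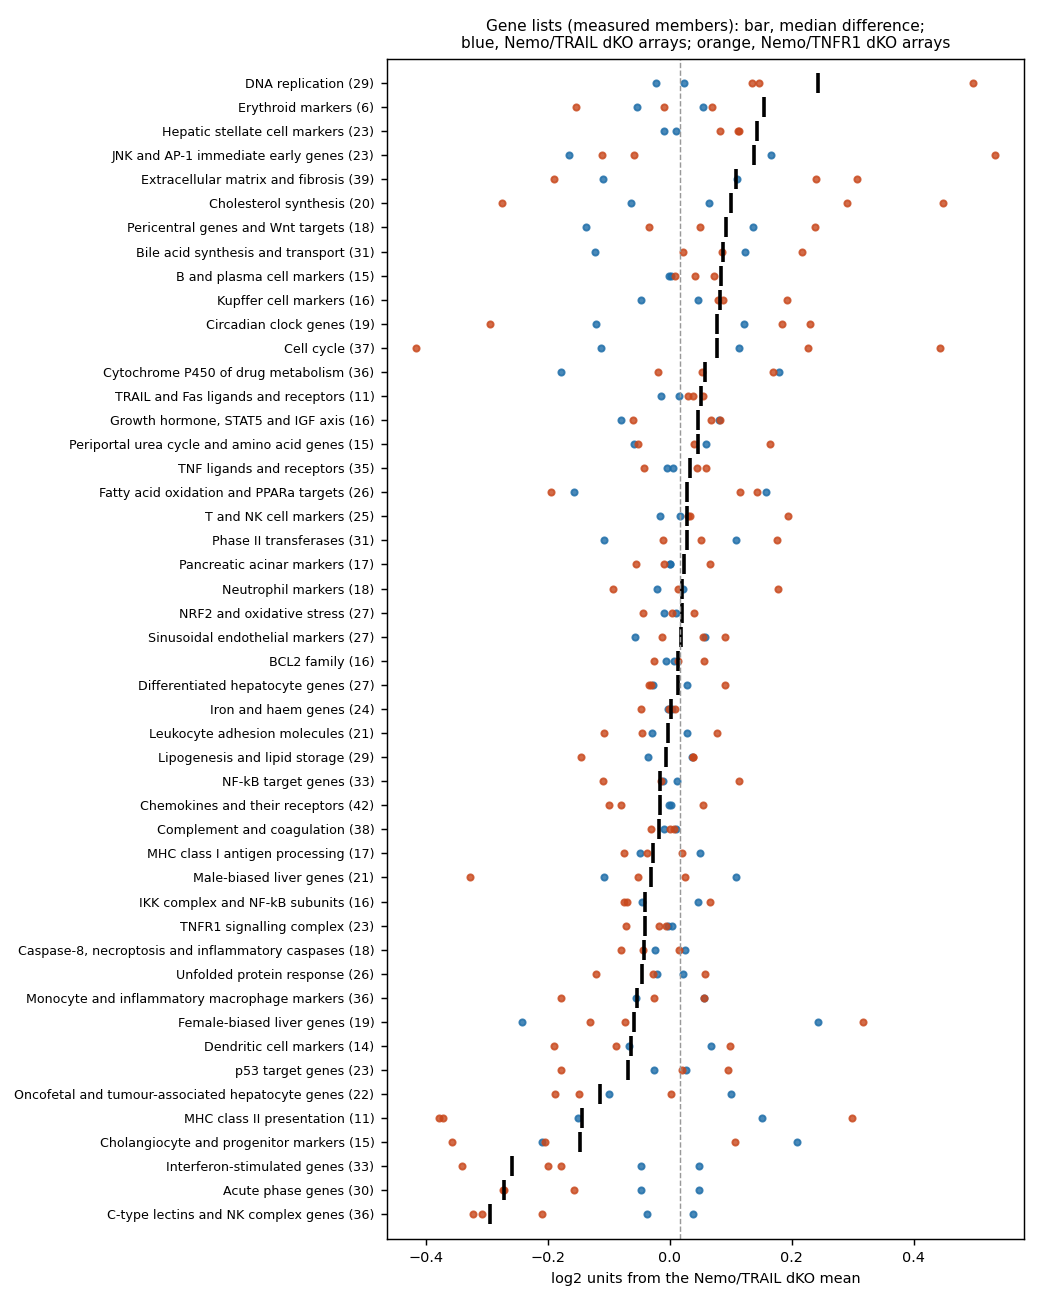
For each gene list, the median log2 difference of its measured members (bar) and the median of each array relative to the Nemo/TRAIL dKO mean (blue, Nemo/TRAIL dKO; orange, Nemo/TNFR1 dKO). Medians of 43 of the 48 lists lie within 0.15 of 0, and the C-type lectin, acute phase and interferon lists lie farthest below it.

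The remaining genes ranked highest by the moderated t did not pass the test. On the higher side were Adh6b, an alcohol dehydrogenase (0.90, adjusted p = 0.109), Mpdz, a scaffold of cell junctions (0.74), Gsr, glutathione reductase (0.55), and Fgfr2, a fibroblast growth factor receptor (0.49). Obp1a (0.43), Calhm1 (0.41) and Pth2 (0.38) completed that side. On the lower side were Entpd4, a nucleotide-hydrolysing enzyme of the Golgi (-0.56, adjusted p = 0.215), Gde1 (-0.42) and Ank2, an ankyrin (-0.41). Entpd4 lies on chromosome 14, as do Gfra2 and Phyhip. The ranking was made among genes whose groups did not overlap, so that property is no result.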

How the data were processed

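Liver RNA was read on Affymetrix MoGene-1_0-ST arrays, 1 per sample. The deposited table holds log2 signals that the authors made with RMA, per the submitters' processing notes (version not stated there). The values were used without renormalization. Of 35556 probe sets 21789 carried exactly 1 gene symbol in the platform annotation, 1621 several and 12146 none. Of the 21789 symbols 21698 were found in the RefSeq table of GRCm38.p6, used for gene order and promoter windows.

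With R 4.3.3 and limma 3.58.1, 1 mean per genotype was fitted to all 11 arrays, with default moderation (residual degrees of freedom 7). The p-values are two-sided and Benjamini-Hochberg adjusted over all probe sets, and a call needed an adjusted p below 0.05. The script was tested on simulated data. The number of arrays limits the precision. For lists, 1 probe set per gene was used, the one with the highest mean signal. The 48 lists, written from general knowledge, held 1284 entries, of which 1150 were measured. Members and lists were chosen with earlier results of these data known. Named genes were the 3 targeted genes, called genes with 1 symbol, those next by moderated t among genes whose groups did not overlap, up to 10 on each side, and the member with the largest moderated t of a list; other members were picked as examples with their values in view. The replicate numbers of the double knockouts are not said to mark animals or days, so the fit has no block. Alternatives covered normalization, filters, moderation, thresholds, arrays used and each array left out.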

Additional observations from a re-analysis of the deposited data

How the results depend on the processing

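The 17 calls (2 higher, 15 lower) became 9 (0 higher, 9 lower) with only the 5 arrays compared, and 11 (1 higher) at an adjusted p below 0.01. Single-symbol probe sets alone gave 6 calls (4 lower), which are all of the 17 that this filter keeps. With only the groups compared the unadjusted p was below 0.05 for 1672 probe sets. A single higher call, 1, was left with robust moderation, median centring or without WT arrays. Leaving out each array other than Nemo/TRAIL dKO in turn gave 12 to 15 calls, 1 to 2 higher and 11 to 14 lower. Of those calls 11 to 15 were shared with the main fit, so some of the 17 were lost and others entered. Without either Nemo/TRAIL dKO array 1 is left in that group, so no count is given. Quantile normalization, a variance trend and array weights each gave 17, and filters at the 25th percentile or the median each 15. The replicate block gave 12 calls (2 higher, 10 lower), 11 of them shared, with an adjusted p of 0.0242 for Gfra2, 0.219 for Alad, 0.18 for Cyp2c39, 0.186 for Prelid2, 0.0983 for Clec2h and 0.179 for Orm2. Deviations of same-numbered arrays from their group means correlated at -0.117 and 0.0435. With 2 Nemo/TRAIL dKO arrays these deviations mirror each other, so the check cannot tell whether the numbers pair arrays. The family's 9 calls held in every alternative that could include it, and no named called gene changed sign in any alternative run. Adh6b (0.0324 without Nemo/TNFR1 dKO replicate 3), Clec1b (0.0228 without WT replicate 3) and Klri1 (0.0384 without Nemo/TRAIL dKO replicate 1) passed in 1 such fit each. Of the list medians under alternatives 349 moved by less than the spread between arrays and 35 by more. With a median 95% interval of 0.255 to either side, smaller differences could not be told from 0 for most probe sets.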

Other observations

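The remaining calls were 2 probe sets without a gene name, described after their values were seen. Probe set 10421186 read 4.87 and 5.14 in Nemo/TRAIL dKO against 3.22, 2.95 and 3.29 in Nemo/TNFR1 dKO, a difference of -1.85 ± 0.18 (limma adjusted p = 0.0058). Nemo KO arrays lay with Nemo/TNFR1 dKO, at 2.79 to 2.998, and WT arrays at 3.93 to 4.54. Probe set 10344087 read 3.78 and 3.90 in Nemo/TRAIL dKO against 2.18, 2.28 and 2.57, a difference of -1.497 ± 0.16 (limma adjusted p = 0.0133). Its Nemo/TNFR1 dKO arrays lay below the 2.86 to 3.47 of WT and Nemo KO. Both signals are low on this array.

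Lipid-handling genes held some wide single differences that did not pass the test. Cidec, a lipid droplet protein that rises in fatty liver, read 8.90 and 8.29 in Nemo/TRAIL dKO against 7.17, 7.99 and 6.91, a difference of -1.23 ± 0.39. Nr0b2 (SHP, the bile acid-induced repressor) read 9.05 and 9.03 against 8.09, 8.66 and 8.41, a difference of -0.66 ± 0.18. Both kept the groups apart, whereas Cyp7a1, the bile acid synthesis enzyme that SHP represses, overlapped at 0.24 ± 0.43. The lipogenesis and lipid storage list as a whole had a median of -0.01 over 29 members.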
